A study of Rattus norvegicus with 2 samples.

Results

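Insulin and insulin-like growth factors act through a pair of related receptor tyrosine kinases, and the signal then passes through adaptor proteins, PI3-kinase and the kinase AKT. AKT inhibits the kinase GSK3 and keeps the FOXO transcription factors out of the nucleus, so that FOXO target genes are expressed when insulin is low. In many tissues FOXO factors also activate genes of the pathway itself, among them the insulin receptor gene and Irs2. The 10 genes described here are the receptors Insr and Igf1r, the adaptors Irs1 and Irs2, the PI3-kinase regulatory subunit Pik3r1, the kinases Akt1, Akt2 and Gsk3b, and the transcription factors Foxo1 and Foxo3. They were taken by name as members of this pathway, and all probe sets annotated to exactly 1 of them were used, 21 of 31042 probe sets on the array.

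Expression was measured in the left adrenal medulla of adult male Sprague-Dawley rats in 2 groups. Rats of group 2RH30 were injected intraperitoneally with 2 IU/kg human insulin on 3 days, with 2 injections per day except for a single morning injection on the last day. Rats of group 2RS30 were injected with saline on that schedule. On day 4 both groups, fasted overnight, underwent a hyperinsulinemic-hypoglycemic clamp with a glucose target of 40 to 50 mg/dL, and tissue was taken 30 min after the target was reached. Both groups were therefore under clamp insulin, and antecedent insulin was given to 2RH30 alone. RNA of 6 rats was pooled for each group and hybridized to 1 Affymetrix rat array. No difference between the groups thus has a replicate check or an error, no p-value can be given, and every comparison is between these 2 pools.

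The deposited values are on a log2 scale, and every difference below is 2RH30 minus 2RS30. The arrays differed as a whole. The SD over probe sets was 1.57 in 2RH30 and 1.28 in 2RS30, the median difference was -0.38 in the dimmest of 20 level bins and 0.49 in the brightest, and the hybridization controls, bacterial and phage sequences added in increasing amounts from bioB to cre, had mean differences between -3.35 (bioB) and -0.51 (cre). On the 2RS30 array 2335 probe sets (7.52%) took 1 of 10 values, each shared by 50 or more probe sets, whereas 0 probe sets of 2RH30 did so. Differences are therefore given as deposited and also after the trend with level was subtracted (level-adjusted). A probe set is called dim where it lay under the median of both arrays, 5.51 in 2RH30 and 5.50 in 2RS30. The SD between probe sets of the same gene, over genes with several that were not dim, was 0.86 where the mean level was 5 to 7 and 0.63 where it was 7 or more. It is used as a yardstick for a single difference, although it holds no spread between animals. For the gap between the differences of 2 genes, both at a mean level of 7 or more, the corresponding value is 0.888, the root of the summed squares.

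Of the 21 probe sets of the 10 genes, 6 passed 2-fold with the higher value in 2RH30, and 0 passed it in the other direction. Over all probe sets 10.4% were higher and 12.1% lower by that much, and 15.4% of those that were not dim were higher, against 6 of 19 here. With 1 probe set per gene, the brightest, 5 of 10 genes were 2-fold or more higher (Insr, Pik3r1, Akt2, Gsk3b and Foxo3), where 11.5% of all 14217 genes were, and 0 were lower, where 9.62% were. The median difference was 0.98 over the 10 genes and 0.11 over all genes. Level-adjusted, the median was 0.54 over the 10 genes and 0.02 over all genes, and 1 of 21 probe sets, that of Gsk3b, stayed 2-fold or more higher, where 8.99% of all probe sets did, while 0 were lower, where 10.2% were. So 5 of the 6 probe sets were under 2-fold once the trend was subtracted, while 17 of 21 probe sets had a level-adjusted difference above 0, against 50.1% of all probe sets. In bulk tissue, fewer cells of a type and less RNA per cell cannot be told apart.

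**Figure D1:**
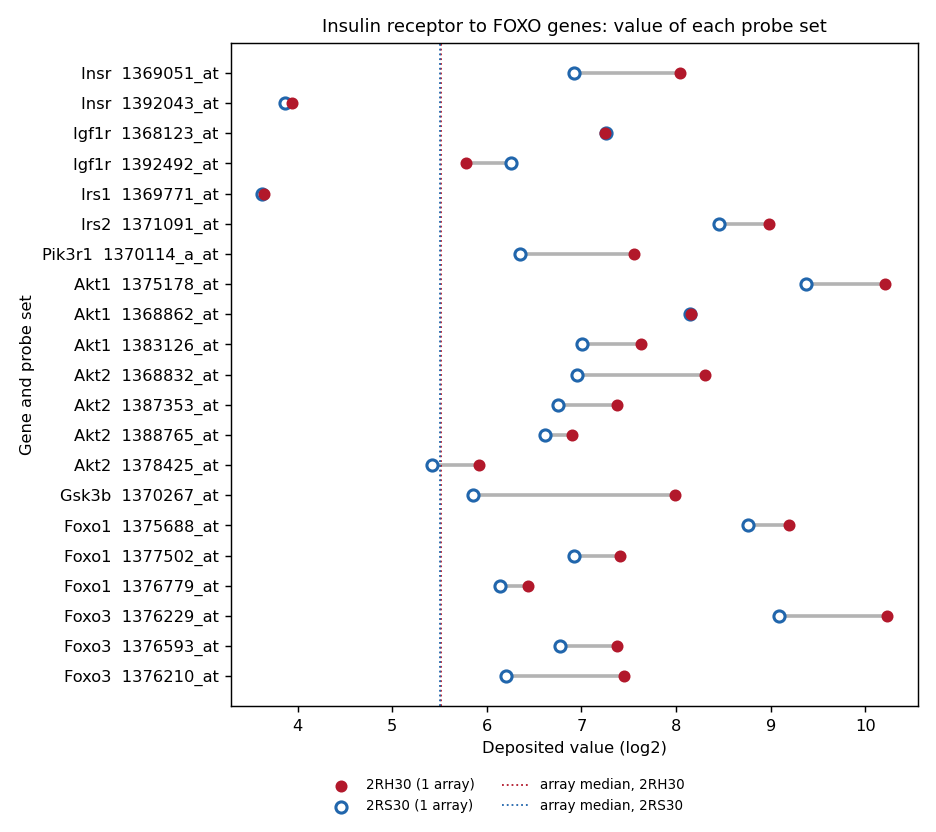
Deposited value (log2, horizontal axis) of each of the 21 probe sets (vertical axis) on the 2RH30 array (filled) and the 2RS30 array (open), with the median of each array (dotted). The probe sets of Igf1r are the ones with the filled point left of the open one, and the widest gap, 7.99 in 2RH30 and 5.86 in 2RS30, is that of Gsk3b.

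The insulin receptor gene and the IGF1 receptor gene differed in their brighter probe sets. Insr (probe set 1369051_at) read 8.04 in 2RH30 and 6.92 in 2RS30, a difference of 1.12 or 2.17-fold (level-adjusted 0.73). It stood at percentile 94.4 of the 2RH30 array and 87.1 of the 2RS30 array, so that it was higher in rank as well. Its other probe set, 1392043_at, was dim, with 3.94 in 2RH30 and 3.86 in 2RS30 (difference 0.08, level-adjusted 0.52). Igf1r, the receptor for insulin-like growth factors, read 7.25 in 2RH30 and 7.26 in 2RS30 in its brighter probe set, 1368123_at (difference -0.01, level-adjusted -0.37). The 2RS30 value of that probe set is a shared one, taken by 88 probe sets. The other Igf1r probe set, 1392492_at, read 5.78 in 2RH30 and 6.25 in 2RS30 (difference -0.47, level-adjusted -0.65). Both Igf1r probe sets were lower in percentile in 2RH30, at 87.4 in 2RH30 against 91.6 in 2RS30 and at 56.4 in 2RH30 against 73.4 in 2RS30. Between the brighter probe sets, the difference of Insr exceeded that of Igf1r by 1.13 (level-adjusted 1.10), more than the yardstick of 0.888 for such a gap, a single SD. Averaged over probe sets, the dim one of Insr included, Insr stood at 0.60 (level-adjusted 0.63) and Igf1r at -0.24 (level-adjusted -0.51). The gap between these means was under the yardstick as deposited and over it level-adjusted. Of 1858 genes with 2 probe sets that were not dim, 13.5% had both below 0, as Igf1r had with 1 of them at -0.01.

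The promoters of the receptor genes are shown because the receptors differed in their brighter probe sets and Insr is a known FOXO target. RefSeq promoter windows on the GRCr8 assembly were found for 8 of the 10 genes; Irs2 and Foxo3 were not among them. The 250 bases before the annotated start of Insr (chr12:6128804-6129053, minus strand) and of Igf1r (chr1:130959747-130959996, plus strand) are printed 5′ to 3′ with the FOXO core motif in capitals. The motif searched was GTAAACA or its reverse complement TGTTTAC.
Insr: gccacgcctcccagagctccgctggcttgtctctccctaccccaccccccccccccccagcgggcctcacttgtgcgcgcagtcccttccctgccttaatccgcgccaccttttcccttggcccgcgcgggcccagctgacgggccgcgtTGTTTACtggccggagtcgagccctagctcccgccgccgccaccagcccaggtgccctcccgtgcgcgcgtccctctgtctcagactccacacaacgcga
Igf1r: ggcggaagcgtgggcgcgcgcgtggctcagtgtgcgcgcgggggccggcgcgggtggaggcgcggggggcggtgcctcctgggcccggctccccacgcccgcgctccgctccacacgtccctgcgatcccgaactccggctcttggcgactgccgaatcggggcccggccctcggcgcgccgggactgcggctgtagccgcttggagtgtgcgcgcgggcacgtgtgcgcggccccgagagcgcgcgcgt
The motif occurred once in Insr, as TGTTTAC, 100 to 94 bases before the start, and in 1 of the 8 genes in all. It occurred in 3.21% of 33469 rat promoters of the same length. A second motif of insulin-responsive promoters, CAAAACA or TGTTTTG, was found in 0 of the 8 genes and in 5.46% of all promoters; the motifs differ and cannot be matched by the same bases. A match in these letters is a description of the sequence and not a measurement of binding. The Insr window had a G and C content of 71.2% and the Igf1r window 79.6%.

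The receptor adaptors were read by 1 probe set each. Irs2, the main insulin receptor substrate of liver and beta cells, read 8.98 in 2RH30 and 8.45 in 2RS30, a difference of 0.53. Level-adjusted it was 0.03, and its percentile was 97.6 on each array, so the deposited difference of Irs2 was that of other probe sets as bright. Irs1, the main substrate of muscle and fat, was dim at 3.65 in 2RH30 and 3.63 in 2RS30 (difference 0.02, level-adjusted 0.46). The 2RS30 value of Irs1 lies below the 5th percentile of that array, 3.67, and the 2RH30 value above the corresponding 3.16, so its level was close to the low end of both arrays. The difference of Irs2 minus that of Irs1 was 0.51 as deposited and -0.43 level-adjusted, so their order depended on the adjustment. The yardstick for this pair, 1.67, cannot judge either value. It rests on an SD of 1.55 over 12 genes of mean level under 5, from probe sets that were not dim, and Irs1 was dim.

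Pik3r1, which encodes the p85 alpha subunit that holds the catalytic subunit of PI3-kinase to the adaptors, read 7.55 in 2RH30 and 6.35 in 2RS30. The difference was 1.20, or 2.30-fold (level-adjusted 0.89), and the percentile was 90.9 in 2RH30 and 75.8 in 2RS30. The yardstick at its mean level, a single SD, is 0.86, which the level-adjusted difference barely exceeded. The deposited difference lay at percentile 89.8 of those of the 1000 probe sets closest in mean level. Its single probe set, 1370114_a_at, allows no check against another one.

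The AKT kinases were read by 7 probe sets, all with a higher value in 2RH30. Akt2, the isoform that drives glucose uptake in muscle and fat, read 8.31 in 2RH30 and 6.95 in 2RS30 in its brightest probe set, 1368832_at, a difference of 1.36 or 2.57-fold (level-adjusted 0.95). The other Akt2 probe sets differed by less. They read 7.38 in 2RH30 and 6.75 in 2RS30 (difference 0.62, level-adjusted 0.30), 6.90 in 2RH30 and 6.61 in 2RS30 (difference 0.29, level-adjusted 0.01), and 5.92 in 2RH30 and 5.42 in 2RS30 (difference 0.49, level-adjusted 0.38). The mean over the 4 probe sets was 0.69 (SD 0.47 between probe sets), so the 2-fold difference of Akt2 was that of 1 probe set. All 4 were above 0 in both forms, where 28.1% of 121 genes with 4 probe sets that were not dim had all of them higher as deposited. Akt1, the isoform tied most closely to growth and survival, read 10.21 in 2RH30 and 9.37 in 2RS30 in its brightest probe set, 1375178_at (difference 0.84, level-adjusted 0.31). Its probe set 1368862_at read 8.16 in 2RH30 and 8.15 in 2RS30 (difference 0.01, level-adjusted -0.46), and 1383126_at read 7.63 in 2RH30 and 7.01 in 2RS30 (difference 0.63, level-adjusted 0.26). The level-adjusted differences of Akt1 thus went both ways, with a mean of 0.04. Between the brightest probe sets the difference of Akt2 exceeded that of Akt1 by 0.52 (level-adjusted 0.64), within the yardstick of 0.888.

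Gsk3b, the kinase that phosphorylates glycogen synthase and is inhibited by AKT, had the largest difference of the 21 probe sets. It read 7.99 in 2RH30 and 5.86 in 2RS30, a difference of 2.13 or 4.38-fold (level-adjusted 1.83). Its percentile was 94.1 in 2RH30 and 62.0 in 2RS30, and its difference lay at percentile 99.5 of those of the 1000 probe sets closest to it in mean level. Among those 1000 probe sets, 15.0% passed 2-fold in the same direction. The other probe sets past 2-fold lay lower against the 1000 closest to each. Insr stood at percentile 89.5, Pik3r1 at 89.8, Akt2 at 94.2 and Foxo3 at 91.5 and 90.2. Between 11.9% and 16.1% of the probe sets closest to each of them passed 2-fold in that direction. Gsk3b has 1 probe set, 1370267_at, so that no other probe set of the gene bears on it. Its paralog Gsk3a, also a single probe set, read 7.16 in 2RH30 and 7.55 in 2RS30 (difference -0.39, level-adjusted -0.76), the 2RS30 value being a shared one taken by 51 probe sets.

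**Figure D2:**
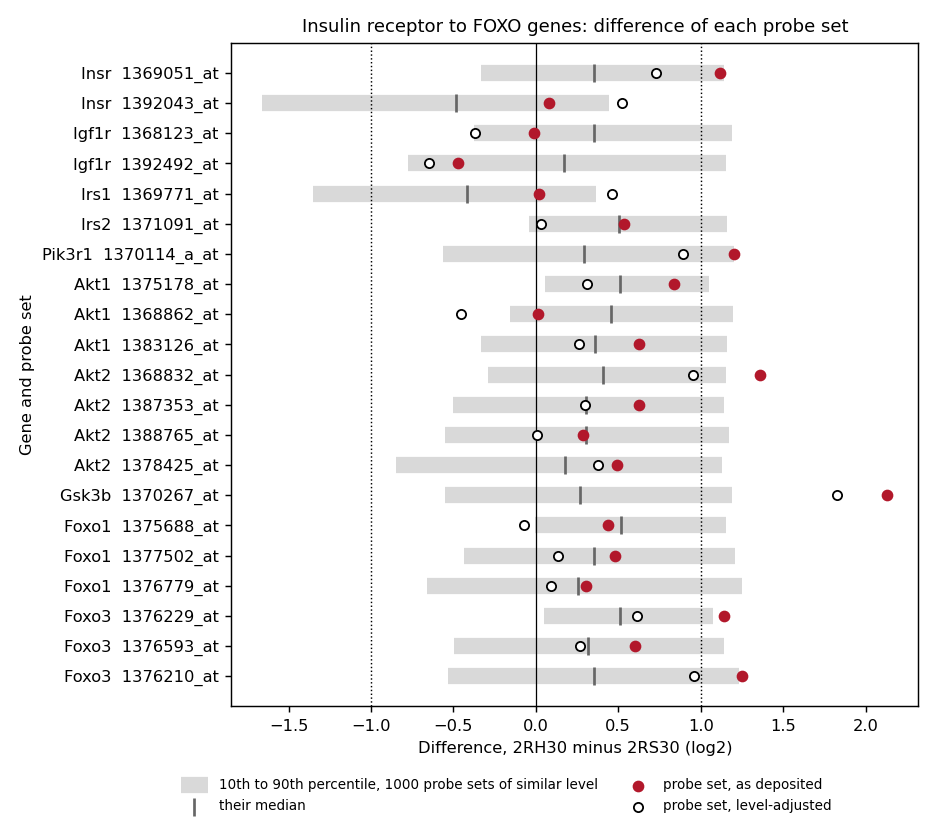
2RH30 minus 2RS30, in log2 units along the horizontal axis, for each of the 21 probe sets down the vertical axis, with deposited differences filled and level-adjusted ones open, over the 10th to 90th percentile (grey) and median (tick) of the deposited differences of the 1000 probe sets closest in mean level. The dotted lines mark 2-fold, and Gsk3b lies well beyond its grey bar at 2.13.

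Foxo3 and Foxo1, transcription factors that AKT phosphorylates and that activate genes of fasting and stress resistance, were each read by 3 probe sets that were not dim. The brightest probe set of Foxo3, 1376229_at, read 10.23 in 2RH30 and 9.09 in 2RS30, a difference of 1.14 or 2.21-fold (level-adjusted 0.61). The probe set 1376210_at read 7.45 in 2RH30 and 6.20 in 2RS30 (difference 1.25, level-adjusted 0.96), and 1376593_at read 7.37 in 2RH30 and 6.77 in 2RS30 (difference 0.60, level-adjusted 0.27). All 3 lay above 0 in both forms, with a mean of 0.997 as deposited (SD 0.35 between probe sets) and 0.61 level-adjusted. Foxo3 was the gene of the 10 with more than 1 probe set past 2-fold as deposited, and none of its probe sets stayed past it level-adjusted. Irs1, Irs2, Pik3r1 and Gsk3b, with 1 probe set each, could not have had more than 1. Foxo1 read 9.20 in 2RH30 and 8.76 in 2RS30 (difference 0.44, level-adjusted -0.07), 7.40 in 2RH30 and 6.92 in 2RS30 (difference 0.48, level-adjusted 0.14), and 6.44 in 2RH30 and 6.14 in 2RS30 (difference 0.30, level-adjusted 0.09). Its probe sets gave nearly the same value, between 0.30 and 0.48, where the median range was 1.23 over 523 genes with 3 probe sets that were not dim, and these differences were those of other probe sets of their level. Of the 523 genes 35.6% had all 3 probe sets above 0 as deposited, as Foxo1, Foxo3 and Akt1 had. The difference of Foxo3 exceeded that of Foxo1 by 0.70 (level-adjusted 0.69) in the brightest probe sets, within the yardstick of 0.888.

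**Figure D3:**
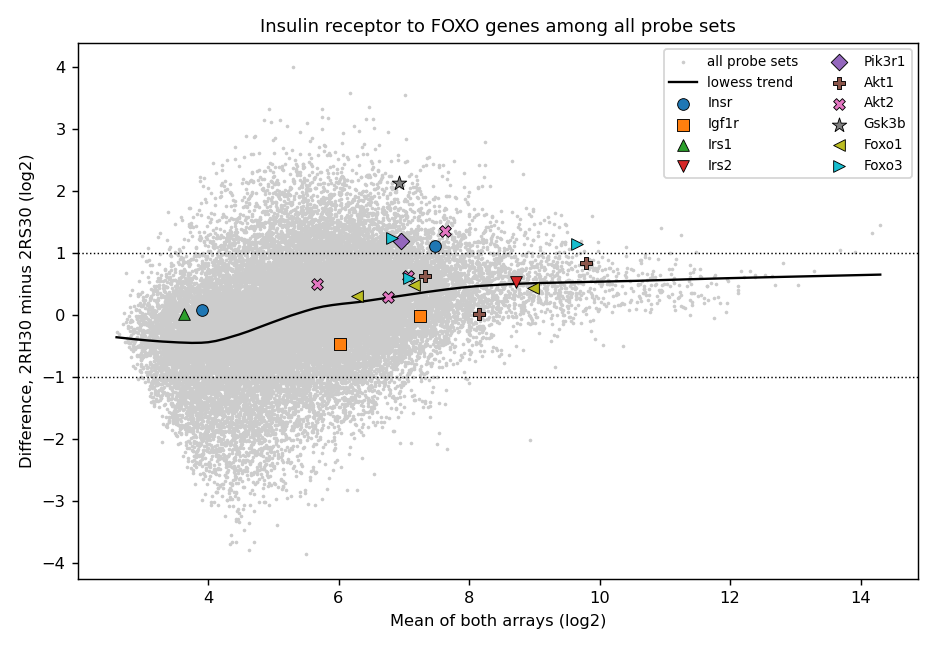
2RH30 minus 2RS30 (vertical axis, log2) plotted over the mean of both arrays (horizontal axis, log2) for all probe sets (grey) and the probe sets of the 10 genes (coloured, 1 symbol per gene), with the lowess trend (line) and 2-fold lines (dotted). Most of the coloured points lie above the trend, and both Igf1r points, at -0.01 and -0.47, lie below it.

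Other genes of the pathway were read from 8 lists, 1 probe set per gene, and the 100 measured genes of these lists had a median difference of 0.16 (level-adjusted -0.02). Of them 7 were 2-fold or more higher in 2RH30 and 7 lower, shares of 7.0% each, below the 11.5% and 9.62% of all genes. Over all 177 probe sets of these genes 15 were 2-fold or more higher and 15 lower, 8.5% each, beside the 10.4% and 12.1% of all probe sets.

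Among 12 measured ligands and binding proteins, 0 were 2-fold or more higher or lower and the median was 0.11. The binding proteins Igfbp3 and Igfbp2, which carry insulin-like growth factors, differed by 0.98 and 0.89 (level-adjusted 0.62 and 0.61). Igfbp5 and the growth factor Igf1 differed by -0.73 and -0.28 (level-adjusted -0.96 and -0.64), but the 5 probe sets of Igfbp5 spanned -0.73 to 0.43. Among 16 adaptors and receptor phosphatases 1 was 2-fold or more higher, Sh2b2, an adaptor of the insulin receptor, which was dim (difference 1.11, level-adjusted 1.24), 0 were lower, and the median was 0.24. Ptpn1, the phosphatase PTP1B that dephosphorylates the insulin receptor, and the adaptor Shc1 differed by 0.66 and 0.65 (level-adjusted 0.38 and 0.40). The adaptor Sh2b1 and the ubiquitin ligase Cbl differed by -0.81 and -0.53 (level-adjusted -1.13 and -0.85), while other probe sets of theirs reached 0.90 and 1.06.

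Of 9 PI3-kinase subunits and lipid phosphatases, 2 were 2-fold or more higher and 2 lower, and the median was -0.27 (level-adjusted -0.47). Pik3r3, another regulatory subunit, read 6.17 in 2RH30 and 4.87 in 2RS30 (difference 1.29, level-adjusted 1.22). The catalytic subunit Pik3cd read 7.29 in 2RH30 and 6.09 in 2RS30 (difference 1.21, level-adjusted 0.94), with a 2RS30 value shared by 330 probe sets. Inpp4b, a phosphatase of PI3-kinase products, read 3.76 in 2RH30 and 5.82 in 2RS30 (difference -2.06, level-adjusted -1.87). Its other probe set, which was dim, differed by 0.75 (level-adjusted 0.96). The other gene 2-fold lower was the dim Pik3c2a, at -1.20. The catalytic subunit Pik3ca differed by -0.37 (level-adjusted -0.56) in the brightest of 6 probe sets. They spanned -1.87, in a dim probe set, to 2.03, in a probe set that was not dim.

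Of 8 AKT kinases, phosphatases and inhibitors, 1 was 2-fold or more higher and 2 lower, with a median of 0.14. Pdpk1, the kinase PDK1 that activates AKT, read 8.05 in 2RH30 and 6.16 in 2RS30 (difference 1.89, level-adjusted 1.56). Its other probe set, which was dim, differed by -0.90 (level-adjusted -0.45). Trib1, a pseudokinase, differed by 0.78 (level-adjusted 0.37), with its 3 probe sets between -0.56 and 1.22, and its relative Trib2 read 4.73 in 2RH30 and 5.77 in 2RS30 (difference -1.03, level-adjusted -1.02). Sgk2, a kinase related to AKT, read 4.42 in 2RH30 and 6.33 in 2RS30 (difference -1.91, level-adjusted -1.94). Among 14 genes of the mTOR complexes and TSC the median was 0.34, 1 gene was 2-fold or more higher and 0 were lower. That gene, Rptor, the scaffold of mTOR complex 1, read 6.25 in 2RH30 and 4.92 in 2RS30 (difference 1.33, level-adjusted 1.23), and its 2RS30 value was shared by 464 probe sets. Akt1s1, an mTOR inhibitor that AKT phosphorylates, differed by 0.73 (level-adjusted 0.25), with its 3 probe sets between -0.50 and 1.11, and the inhibitors Tsc2 and Deptor by -0.25 and -0.14 (level-adjusted -0.51 and -0.49).

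Of 11 metabolic effectors of AKT and GSK3, 2 were 2-fold or more higher and 0 lower, with a median of 0.37 (level-adjusted 0.34). Slc2a4, the insulin-responsive glucose transporter GLUT4, read 6.16 in 2RH30 and 4.79 in 2RS30 (difference 1.37, level-adjusted 1.31), and 0.35 separated the arrays in its other probe set, which was dim. Bad, a death-promoting protein that AKT phosphorylates, read 5.66 in 2RH30 and 4.35 in 2RS30 (difference 1.31, level-adjusted 1.43). Mdm2, the ubiquitin ligase of p53, and Tbc1d1, a Rab GTPase-activating protein, differed by -0.51 and -0.49 (level-adjusted -0.74 and -0.68). Other probe sets of theirs stood at 0.38 and 0.12, that of Tbc1d1 being dim.

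The 10 measured genes among other FOXO factors and cofactors all had a higher value in 2RH30, as 63.9% of all genes that were not dim had, with a median of 0.45, but 5 of 10 were above 0 when level-adjusted (median 0.07) and 0 were past 2-fold. The acetyltransferase Ep300 and the 14-3-3 protein gene Ywhaq, whose family binds phosphorylated FOXO, differed by 0.96 and 0.92 (level-adjusted 0.62 and 0.40), and the 14-3-3 genes Ywhae and Ywhab by 0.06 and 0.12 (level-adjusted -0.48 and -0.38). The other probe set of Ywhab, of similar brightness, read 8.96 in 2RH30 and 7.72 in 2RS30 (difference 1.23, level-adjusted 0.75). Of 22 measured FOXO target genes, each read from its brightest probe set, 0 were 2-fold or more higher and 3 lower, and the median was 0.06 (level-adjusted -0.15). Pck1, a key enzyme of gluconeogenesis, read 3.86 in 2RH30 and 6.05 in 2RS30 (difference -2.19, level-adjusted -2.06), and Ccng2, a cyclin that slows the cell cycle, read 4.15 in 2RH30 and 6.28 in 2RS30 (difference -2.13, level-adjusted -2.10). Each has 1 probe set. The third, Ppargc1a, a coactivator of mitochondrial genes, was dim and differed by -1.03, with its 3 probe sets between -1.03 and -0.53. Pdk4, an inhibitor of pyruvate oxidation and a common fasting gene, had a brighter probe set at 0.89 (level-adjusted 0.85). Its other probe set, which was dim, stood at -2.11 (level-adjusted -1.79). Igfbp1, a further target, was dim and differed by -0.17. Over all 35 probe sets of the FOXO targets 3 were 2-fold or more higher (8.6%) and 6 lower (17.1%), beside the 10.4% and 12.1% of all probe sets. Of the 6 lower ones, those of Ppargc1a, Pdk4, Klf15 (-2.05, level-adjusted -1.60) and Cdkn1b (-1.26, level-adjusted -0.95) were dim. The brightest probe sets of Klf15 and Cdkn1b differed by 0.405 and 0.05. The 3 higher ones were not the brightest of their genes. They were probe sets of Cited2, a transcriptional coregulator, at 8.03 in 2RH30 and 6.11 in 2RS30 (difference 1.92, level-adjusted 1.60), of Trib1 (difference 1.22, level-adjusted 1.12) and of Sesn3, a sestrin (difference 1.17, level-adjusted 1.21). The brightest probe sets of Cited2 and Sesn3 differed by 0.36 and 0.48 (level-adjusted -0.11 and -0.06).

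**Figure D4:**
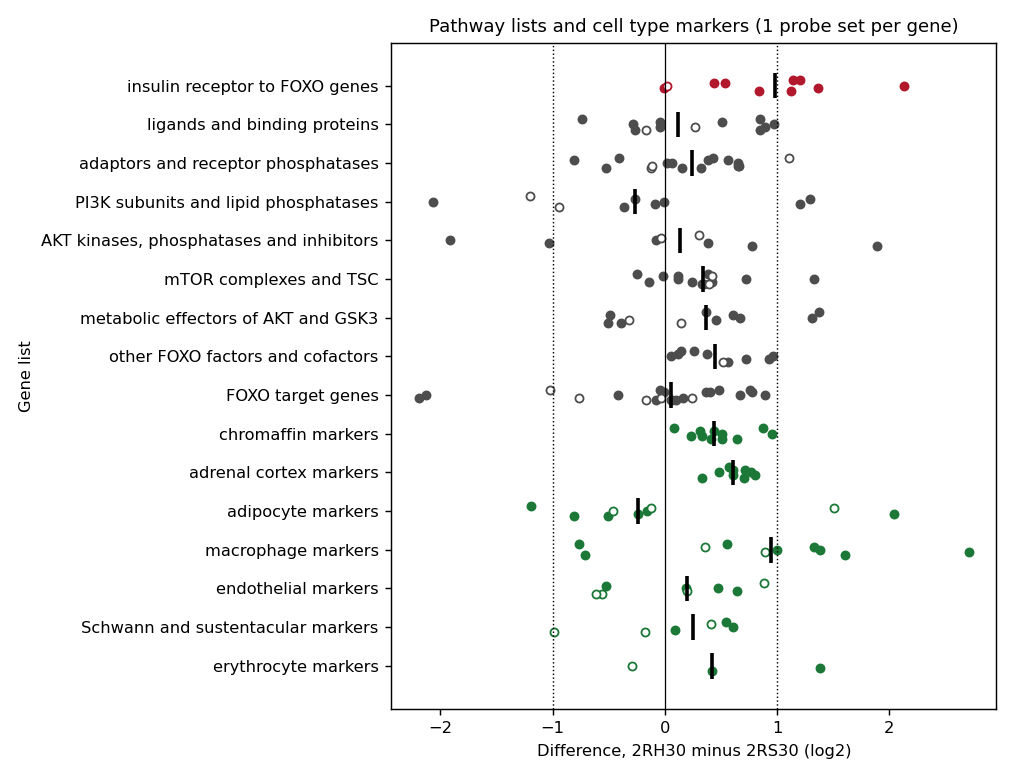
2RH30 minus 2RS30 in log2 units (horizontal axis) for each gene, read from its brightest probe set, for the 10 genes (red), the pathway lists (grey) and the cell type markers (green), with dim genes open, list medians as black bars and 2-fold lines dotted. The median bar of the 10 genes lies at 0.98 and those of the 8 pathway lists between -0.27 and 0.45.

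Markers of the cell types the tissue could hold were read the same way. Of 11 measured chromaffin markers, which include Th and Pnmt, 0 were dim, and the values ran from 6.32 to 11.96 in 2RH30 and from 5.88 to 11.45 in 2RS30. They had a median difference of 0.44 (level-adjusted 0.07), with 0 past 2-fold. Markers of the labelled tissue, the adrenal medulla, were thus present, and the 9 measured markers of adrenal cortex were bright too, from 9.06 to 13.64 in 2RH30 and from 8.73 to 12.92 in 2RS30. The cortex markers had a median difference of 0.61 (level-adjusted 0.04), with 9 of 9 higher as deposited and 0 past 2-fold. Over all 15 chromaffin probe sets 1 was 2-fold or more higher (6.7%, Hand2 at 1.24) and 0 lower. Over all 13 cortex probe sets 2 were higher by that much (15.4%, Nr5a1 at 1.69 and Scarb1 at 1.18) and 0 lower. On the whole array 10.4% of probe sets were higher and 12.1% lower. Summed on the linear scale and given as log2, the chromaffin list was 13.51 in 2RH30 and 13.01 in 2RS30 and the cortex list 15.05 in 2RH30 and 14.38 in 2RS30.

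Other cell types showed differences in both directions. Of 10 macrophage markers 5 were 2-fold or more higher and 0 lower, where 11.5% and 9.62% of all genes were. The median difference was 0.95 (level-adjusted 0.97) and the summed level 10.66 in 2RH30 and 9.96 in 2RS30. The defining markers Csf1r and Ptprc, however, stood at -0.77 and -0.71. Over all 12 macrophage probe sets 5 were higher by that much (41.7%) and 2 lower (16.7%), where 10.4% and 12.1% of all probe sets were. The lower ones were dim probe sets of Ptprc at -2.13 and Aif1 at -1.29. Of 9 adipocyte markers 2 were 2-fold or more higher (Lipe at 2.04 and the dim Pparg, with a shared 2RS30 value) and 1 lower (Fabp4 at -1.19). The other Lipe probe set, not dim, differed by 0.01 (level-adjusted -0.18). The adipocyte median was -0.24 (level-adjusted -0.37), and the summed level was 9.23 in 2RH30 and 8.99 in 2RS30. Over all 11 adipocyte probe sets 2 were 2-fold or more higher and 2 lower, 18.2% each. The defining adipocyte gene Adipoq read 4.97 in 2RH30 and 5.78 in 2RS30. Pck1, which fat also expresses, was lower in 2RH30 as Fabp4 and Adipoq were, and the part of fat in its difference was not tested. The endothelial list (8 measured, summed level 9.10 in 2RH30 and 8.91 in 2RS30) had a median of 0.19. The Schwann and sustentacular list (6 measured, 8.14 in 2RH30 and 7.91 in 2RS30) had one of 0.25. Each had 0 past 2-fold in the brightest probe sets. Over all 11 endothelial probe sets 0 were 2-fold or more higher and 1 lower (9.1%), a probe set of Flt1 at -2.25 that was not dim. The erythrocyte list (3 measured, 9.98 in 2RH30 and 9.55 in 2RS30) had a median of 0.42, with Alas2 at 1.38. All of the 10 genes of the pathway are expressed in many cell types, and the part of these cells in their differences was not tested.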

How the data were processed

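Total RNA of 6 rats per group was pooled by the authors and hybridized to 1 Affymetrix rat expression array per group. The deposited log2 values, 1 per probe set and array, were made with Affymetrix Expression Console per the submitters' processing notes; whether they were summarized by GCRMA, which the study's methods name for its own work in Partek, is not stated; the values themselves show the log2 scale. The methods of the study call the deposited data quantile-normalized, but values of equal rank on the arrays differ by up to 1.45. The table holds 31099 probe sets, of which 57 are array controls and were left out. Platform annotation named 1 gene for 20826 probe sets, with symbols updated through RefSeq (GRCr8) for 20758, several genes for 436 and none for 9780.

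With 1 array per group no statistical test was possible, and precision is limited by the number of arrays. The 2-fold threshold is that of the study. Level-adjusted differences are residuals of a lowess curve of difference on mean level (fraction 0.3, 3 iterations), tested on simulated data. The simulated data had less spread than these arrays and planted differences larger than most of those reported. The test therefore does not show how reliable the 2-fold counts are here. For a gene with several probe sets, the brightest by mean level was used. All 10 genes are named with every probe set, and of each pathway list up to 2 genes at each end, dim genes left out. Sh2b2, Pik3c2a, Ppargc1a, Igfbp1, Gsk3a, Cited2, Sesn3, Klf15, Cdkn1b and the named cell type markers fall outside this rule and were chosen after their values were seen. Genes and lists were chosen with earlier results of these data known. Alternatives were centring, quantile normalization, the lowess adjustment, other thresholds, and other choices of probe sets. Python 3.11.15, pandas 2.3.3, numpy 2.4.6, statsmodels 0.14.6 and matplotlib 3.10.9 were used.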

Additional observations from a re-analysis of the deposited data

How the results depend on the processing

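The count of 6 probe sets 2-fold or more higher in 2RH30 was 1 after quantile normalization, 1 after the lowess adjustment (fraction 0.3, and 1 with fraction 0.5), 10 at a 1.5-fold threshold and 1 at a 3-fold threshold. Shares of all probe sets at the 1.5-fold and 3-fold thresholds, after quantile normalization and with fraction 0.5 were not counted. The counts under those settings therefore cannot be set beside the whole array. The count stayed 6 when arrays were centred on the median and when dim or multi-transcript (_s_at or _x_at) probe sets were left out. It was 5 with 1 probe set per gene. The 6 probe sets were not dim and the 10 genes have no _s_at or _x_at probe set, so leaving those out could not change the count. Centring moved differences little, and the smallest of the 6, that of Insr, was 1.11 after it. The count of 0 lower probe sets was 0 under each of these alternatives. The median over the 10 genes, 0.98, was 0.56 after quantile normalization, 0.54 after the lowess adjustment (0.53 with fraction 0.5) and 0.57 when a gene's probe sets were averaged. The lowess adjustment subtracts the level trend by construction; the cause of the other falls was not tested. Lowess fraction 0.5 and leaving out probe sets with a shared value were chosen after seeing the data. Without those probe sets the count stayed 6, the median 0.98, and Igf1r was read at -0.47. The only such probe set of the 10 genes was the brighter one of Igf1r, which was not among the 6. Igf1r had the lowest difference of the 10 genes with either of its probe sets. Leaving out the shared one could therefore change neither the count nor the median. Of 98 alternative values for single genes and pathway lists, 94 moved by less than the spread, taken as the SD between probe sets for a gene and as that SD over the root of the number of genes for a list median. The others were the Akt2 mean over probe sets (0.69), the median of other FOXO factors and cofactors (0.07 after quantile normalization or lowess) and that of FOXO targets (-0.15 after lowess). For single genes the count was largely set in advance and does not measure stability. The level trend at their brightest probe sets was at most 0.53, under the smallest spread of 0.63, so lowess could move none past it. Insr at 0.73, Akt2 at 0.95 and Foxo3 at 0.61 after lowess thus count as unmoved. No replicate could be left out. No paired analysis was possible because neither group holds more than 1 array. The files give no background signal, so no detection limit is stated for dim probe sets.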
